A study of Homo sapiens with 8 samples.

Results

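Myeloma cells given oligonucleotide inhibitors against miR-221 and miR-222, a pair of microRNAs, were compared with the same cells given a negative control oligonucleotide, all without melphalan. The comparison holds 4 of the 8 arrays of the series, selected by the treatment tag none and by the transfection tag. U266 is an established human multiple myeloma cell line. U266/s is the parental line and U266/LR7 its melphalan-resistant derivative, per the labels. Within each line, 1 array came from cells transfected with 100 nM inhibitors and 1 from cells transfected with the negative control, whose dose is not listed separately, and RNA was collected 12 h after treatment. The groups are therefore 2 arrays against 2, paired by line, and each condition has 1 array. Nothing in the labels says how many cultures stood behind an array. On these 4 arrays the spread behind each p-value is how far apart the differences of the lines lie, pooled over genes of like signal. It rests on single arrays and could be technical. The other 4 arrays carry 100 µM melphalan, a DNA-alkylating drug, with or without the inhibitors. They are used below to ask whether a difference was seen again. They also enter the fits and tests on all 8 arrays and those with 1 array left out, where they add to the estimate of spread. Their cells without inhibitors are tagged as not transfected, so the transfection itself cannot be told apart from the inhibitors there.

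A microRNA guides the Argonaute protein to messenger RNAs by pairing its seed, the bases near its 5′ end, with sites that lie mostly in 3′ untranslated regions. The messages bound in this way are translated less and are often degraded. miR-221 and miR-222 are encoded side by side on the X chromosome and are known to repress the cell cycle inhibitors CDKN1B (p27) and CDKN1C (p57), the BH3-only death genes BBC3 (PUMA) and BMF, and the KIT receptor. An inhibitor is an oligonucleotide that pairs with the mature microRNA and blocks it, so the microRNA's direct targets are the messages it is meant to release.

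The mature forms that the inhibitors address are shown first because the shared seed defines which messages both can bind. Sequences are those of RefSeq on GRCh38.p14, and capitals mark the seed, bases 2 to 8.
hsa-miR-221-3p: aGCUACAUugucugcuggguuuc
hsa-miR-222-3p: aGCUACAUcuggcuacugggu
The first lies at chrX:45746180-45746202 and the second at chrX:45747036-45747056, both on the minus strand. The seed GCUACAU was found in these 2 of 2370 mature names in the table, so no other listed microRNA shares it. The hairpins from which they are cut are given next, with the mature arms listed there in capitals.
MIR221 hairpin: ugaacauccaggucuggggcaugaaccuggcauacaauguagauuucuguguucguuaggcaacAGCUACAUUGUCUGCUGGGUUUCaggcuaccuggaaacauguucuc
MIR222 hairpin: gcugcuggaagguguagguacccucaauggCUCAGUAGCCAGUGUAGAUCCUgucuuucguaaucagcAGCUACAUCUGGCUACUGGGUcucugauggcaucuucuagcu

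The inhibitors were followed by small differences, few of which were shared by the lines. Signals are log2 values, so that a difference of 1 is a 2-fold difference in signal. Among 18417 genes the lines moved in opposite directions in 55.1%, both higher in 23.4% and both lower in 21.1%. The correlation of the lines' differences over all genes was r = -0.07 (Spearman's rho = -0.12), a description across genes that are not independent replicates. Small nucleolar and small nuclear RNA genes made up 30 of the 78 genes that passed the test described next, while small RNA genes were 202 of the 18417. When these 202 were given a variance of their own, 0 of them passed. Of 115 C/D box small nucleolar RNA genes, 68 were lower in both lines, among them 17 of 20 copies of SNORD116, whereas SNORA2A, SNORD95 and the minor spliceosomal RNA gene RNU4ATAC were higher in both. Of 36 measured genes reported as targets of miR-221 or miR-222, 0 passed the test in either direction, where 0.424% of all genes passed, so a count of 0 in a list of this size is near the share over all genes.

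With the line as a block, limma called 78 genes at an adjusted p under 0.05 (0.424% of those tested), 32 higher (0.174%) and 46 lower (0.25%). At an unadjusted p under 0.05 there were 832 genes, or 4.52%. This fit has 1 residual degree of freedom, and the variances of single genes were replaced by a common value at each signal level (limma estimated infinite prior degrees of freedom), so a gene with unusually noisy probes is not recognised as such. When all 8 arrays entered the fit, with terms for melphalan, 20 genes were called (0.109%), 6 higher and 14 lower, and all 20 were among the 78. The differences themselves are the same in this fit, since they come from the 4 arrays without melphalan. The melphalan arrays change only the spread against which they are tested, so a call there is not a second measurement. The count was 1 after cyclic loess normalization, a lower gene (SNORD116-1), and 0 when the line was left out of the model or when all 8 arrays were fitted without interaction terms. It was 67 without either U266/LR7 array, 513 without the U266/s control array and 512 without the U266/s inhibitor array, each in the 8-array model, where the effect then rests on the other line's pair. Of the 78 genes, 15 were called without each of the 4 arrays in turn, 12 of them small RNA genes, and 3 were not called without any of them. Of the 78 calls, 50 were lost without either U266/LR7 array and 16 without either U266/s array. In the sentences below, "passed", "rose" and "fell" refer to the fit of the 4 arrays. The 20 genes that were also called with all 8 arrays were IL2RB, SNORA2A, RNU4ATAC, SNORD95, ODAPH and CYP4Z2P on the higher side and SNORD116-1, SNORD116-6, SNORD116-11, SNORD116-15, SNORD116-24, SNORD41, SNORD42A, SNORD45A, SNORA7B, SNORA22, SNORA24, AMPD1, CHRNA1 and ROPN1L on the lower, and no other gene named below was.

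Without a test, 983 genes were higher by at least 0.5 in U266/LR7 (5.34%) and 587 lower (3.19%). In U266/s, 247 genes were higher by that much (1.34%) and 415 lower (2.25%). Both lines were higher by at least 0.5 in 25 genes (0.136%) and lower in 46 (0.25%), while 45 genes (0.244%) moved by that much in opposite directions. Differences of at least 1 were fewer, with 65 genes higher (0.353%) and 36 lower (0.195%) in U266/LR7, and 13 higher (0.0706%) and 16 lower (0.0869%) in U266/s. By limma on all 8 arrays, the test of a difference between the lines passed for 0 genes, with the effect averaged over the pairs without and with melphalan. For that test the lowest adjusted p was 0.385 and 960 genes had an unadjusted p under 0.05. The count was 32 after a second quantile normalization. The fit has 1 residual degree of freedom, so a count of 0 does not show that the lines responded alike.

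**Figure D1:**
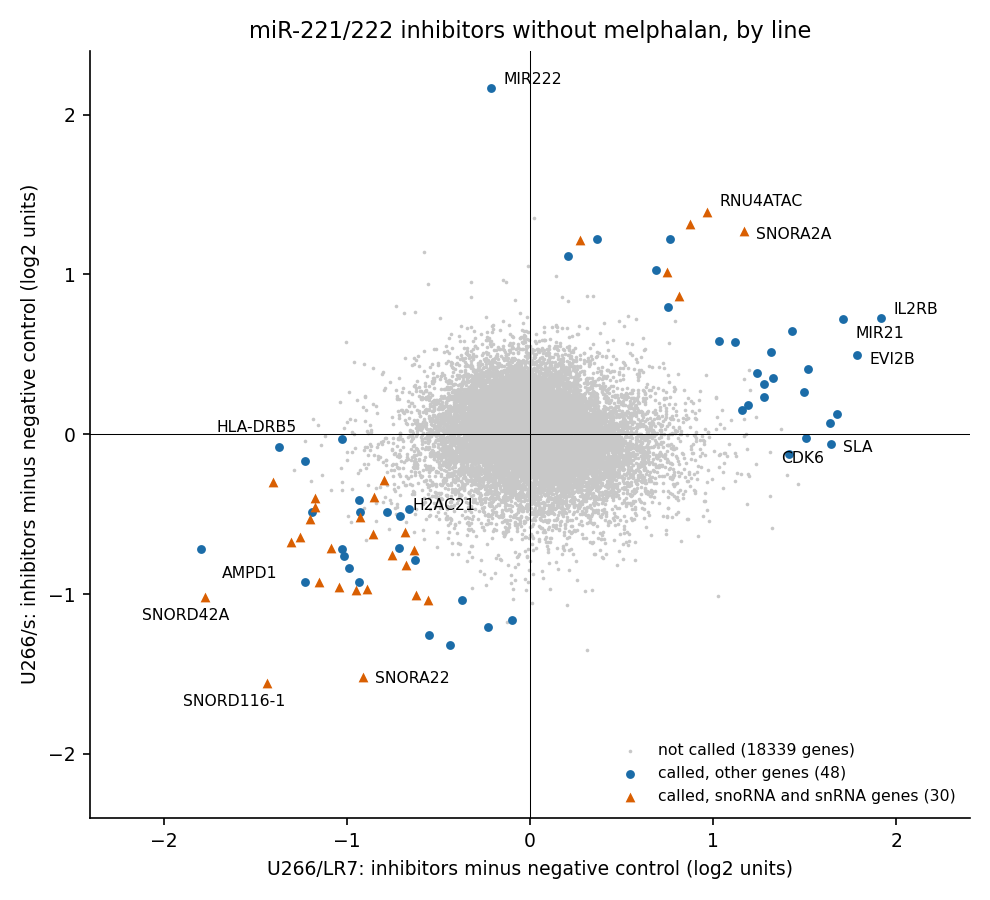
Difference between the inhibitor and the control array for each of 18417 genes, in U266/LR7 (horizontal axis) and in U266/s (vertical axis), in log2 units, with 1 array per condition. Grey points are genes that were not called, blue circles are the 48 called genes of other kinds and orange triangles the 30 called small nucleolar and small nuclear RNA genes; most called points lie in the lower left and upper right, and MIR222 lies high in U266/s alone.

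The genes of the inhibited microRNAs were measured by 1 transcript cluster each, which reports RNA of the locus and does not separate precursor from mature forms. MIR222 had a signal of 4.25 in the U266/LR7 control array and 4.04 in the inhibitor array, against 4.03 and 6.20 in U266/s. The inhibitor array of U266/s thus stood alone above the other 3, and the groups overlapped. The mean difference of 0.98 ± 0.17 (limma's SE) passed (adjusted p = 6.79e-06), although it averages -0.22 in U266/LR7 and 2.17 in U266/s. Each SE of the 4-array fit, here and below, is a common value at that signal level. It does not measure how closely the pairs of a single gene agree. The mean difference of MIR222 did not pass in the 8-array fit (adjusted p = 0.729). The call was also lost with a robust variance estimate (adjusted p = 1.0) and after a second quantile normalization (0.144), and the direction turned to -0.21 when either U266/s array was left out (adjusted p = 0.811 and 0.814). In the pairs with melphalan the same contrast appeared, with 0.01 in U266/LR7 and 1.23 in U266/s. The difference between the lines was 1.80 over all 8 arrays and did not pass (adjusted p = 0.385). MIR221 was 5.27 and 5.26 in U266/LR7, control and then inhibitors, and 5.24 and 5.97 in U266/s. Its mean difference of 0.36 ± 0.17 did not pass (adjusted p = 1.0), and here too the U266/s inhibitor array was the highest of the 4.

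Of 173 microRNA genes measured, 2 passed (1.16%, against 0.424% of all genes), both higher, MIR222 and MIR21. MIR21 encodes a microRNA that is abundant in many tumours. It was 6.39 and 8.10 in U266/LR7 and 6.98 and 7.71 in U266/s. Both inhibitor arrays lay above both controls, a pattern found in 8.54% of all genes on the higher side. The rise was 1.22 ± 0.20 (adjusted p = 4.67e-06 by limma on the 4 arrays and 0.0739 on all 8), and in the melphalan pairs the differences were 1.47 and 0.36. Without the U266/LR7 control or inhibitor array it was 0.72 and not called (adjusted p = 0.281 and 0.269). VMP1, the gene in which MIR21 lies, differed by 0.06. The mature form of MIR21 does not carry the seed of the inhibited pair, as its sequence shows (chr17:59841273-59841294, plus strand, GRCh38.p14, seed in capitals).
hsa-miR-21-5p: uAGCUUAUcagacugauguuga
Of the remaining microRNA genes the largest differences were in MIR9-1 (0.50) and MIR148A (0.47) on the higher side and in MIR142 (-0.54), MIR93 (-0.49), MIR184 (-0.47) and MIR382 (-0.42) on the lower, and none of these 6 passed. The median over all 173 was -0.07 in U266/LR7 and 0.08 in U266/s.

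**Figure D2:**
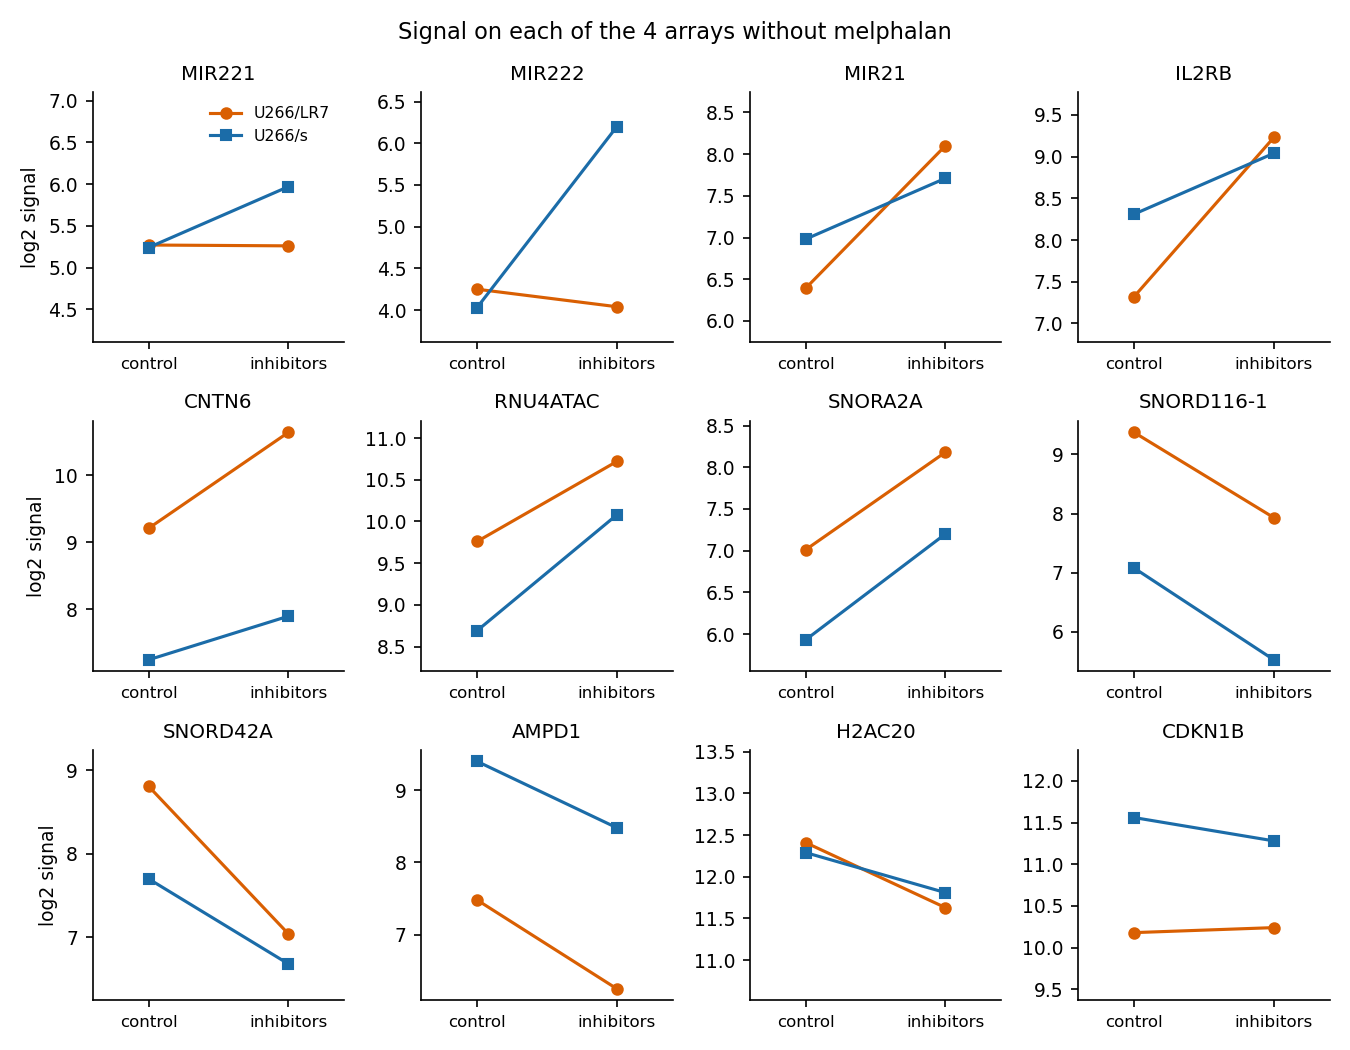
Log2 signal of 12 genes on each of the 4 arrays without melphalan, control on the left and inhibitors on the right, with circles for U266/LR7 and squares for U266/s; lines join the arrays of one cell line, and the span of the vertical axis differs between panels. MIR222 rises steeply in U266/s and not in U266/LR7, SNORD116-1 and SNORD42A fall in both lines, and CDKN1B stays within 0.3 of its control.

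Genes reported as direct targets of miR-221 or miR-222 were followed in a list of 38, of which 36 were measured. None of the 36 passed in either direction, against 0.424% of all genes. The list's median difference was 0.14, against 0.01 over all genes, with 0.12 in U266/LR7 and 0.05 in U266/s. In the melphalan pairs its medians were -0.06 in U266/LR7 and 0.02 in U266/s. Both lines were higher in 15 of the 36, both lower in 4, and 17 went in opposite directions, against 23.4%, 21.1% and 55.1% of all genes. After a second quantile normalization 16 were higher in both and 7 lower, and after cyclic loess 14 and 7.

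The cell cycle inhibitors among them showed no common direction. CDKN1B had signals of 10.18 and 10.24 in U266/LR7, control and then inhibitors, and 11.56 and 11.28 in U266/s. CDKN1C was 8.18 and 8.11 in U266/LR7 and 8.19 and 8.54 in U266/s. In both genes the lines moved in opposite directions, and the mean differences were -0.12 ± 0.18 and 0.14 ± 0.22 (SE). CDKN1A, the related inhibitor p21, which was not on the target list, went from 8.10 to 8.27 and from 7.22 to 7.37.

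None of the death genes passed. BBC3 was 6.94 and 7.25 in U266/LR7 and 7.29 and 7.42 in U266/s, a mean difference of 0.22 ± 0.20. BMF was 7.21 and 7.58, then 8.06 and 8.03, a mean difference of 0.17 ± 0.21. BCL2L11, which encodes the BH3-only protein BIM, differed by -0.07 ± 0.22. TNFSF10, the gene of the death ligand TRAIL, was 7.99 and 7.97 in U266/LR7 and 8.72 and 8.25 in U266/s, the most negative mean of the list at -0.25 ± 0.22.

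The largest positive difference of the list belonged to DDIT4, which encodes a stress-induced inhibitor of mTOR complex signalling. It was 7.76 and 8.40 in U266/LR7 and 8.18 and 8.49 in U266/s. Both inhibitor arrays lay above both controls, and the mean difference of 0.48 ± 0.22 did not pass (adjusted p = 0.926). DICER1, which encodes the enzyme that cuts hairpins into mature microRNAs, was 10.37 and 11.09 in U266/LR7 and 10.65 and 10.67 in U266/s, so that its mean of 0.37 ± 0.18 came from the resistant line. FOXO3, a transcription factor restrained by AKT, differed by 0.19, TIMP3, an inhibitor of metalloproteinases, by 0.17 and KIT by -0.11. KIT had mean signals of 4.45 and 4.34, below the lower quartile of gene means (5.93). In U266/LR7 several larger differences were reversed in U266/s, such as RB1 (0.66 against -0.35), PPP2R2A (0.51 against -0.33) and APAF1 (0.52 against -0.17).

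**Figure D3:**
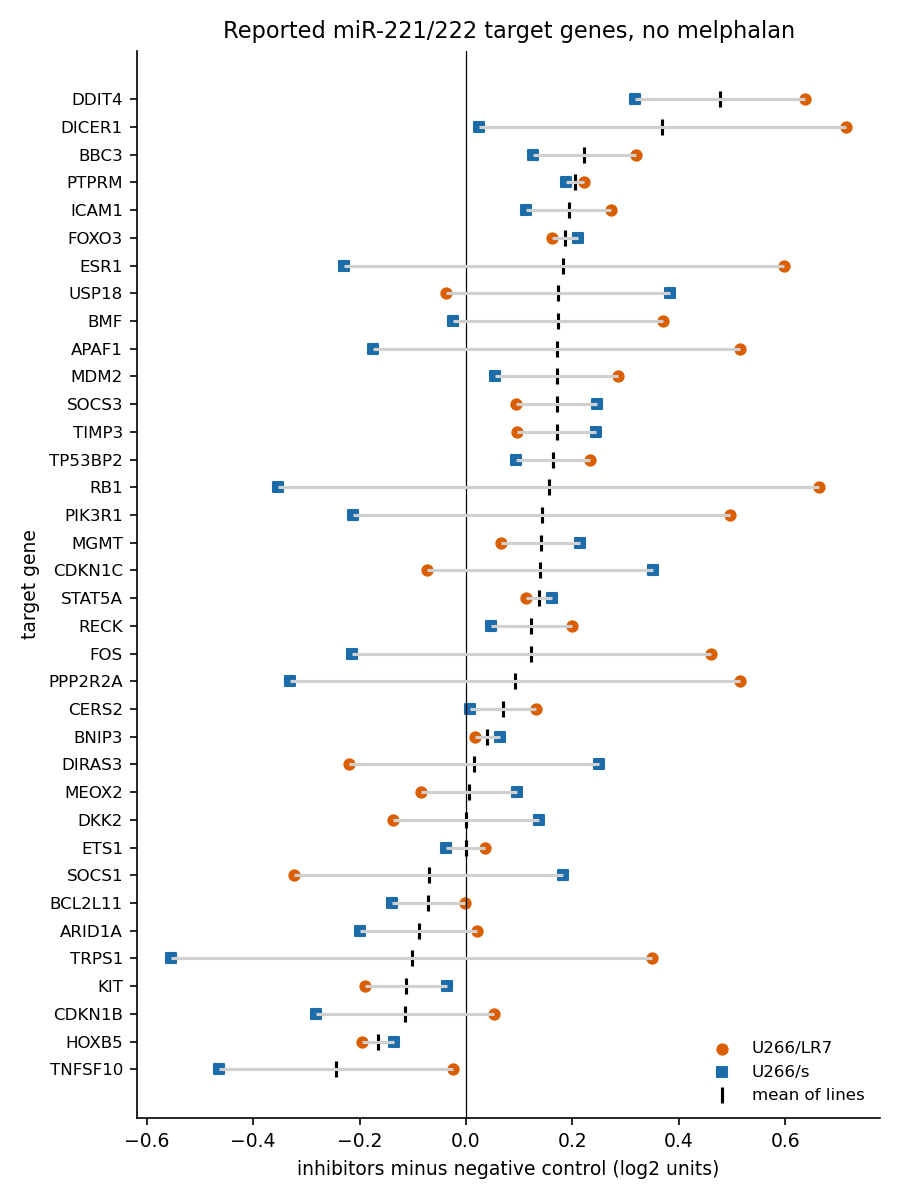
Difference between inhibitors and negative control (log2 units, horizontal axis) for the 36 measured target genes, ordered by the mean of the lines (black bars), with circles for U266/LR7 and squares for U266/s, 1 array per condition. DDIT4 and DICER1 lie at the top and TNFSF10 at the bottom, and the circles and squares of 17 genes fall on opposite sides of 0.

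Small nucleolar RNAs held a large share of the called genes. These RNAs guide the chemical modification of ribosomal and spliceosomal RNA, the C/D box class (SNORD) directing methylation and the H/ACA box class (SNORA) the conversion of uridine to pseudouridine. Of 175 genes annotated as snoRNAs, 27 passed, 23 lower and 4 higher, which is 15.4% against 0.424% of all genes. The median residual SD was 0.166 in 202 small RNA genes and 0.125 in the other genes, and when the small RNA genes were given a variance of their own, 0 of them passed. In the 8-array fit 14 small RNA genes passed.

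In the C/D box class, 17 of 115 genes fell and 2 rose, where 0.25% of all genes fell and 0.174% rose. The medians were -0.40 in U266/LR7 and -0.20 in U266/s. SNORD42A was 8.81 and 7.04 in U266/LR7, control and then inhibitors, and 7.70 and 6.68 in U266/s, a fall of 1.40 ± 0.21 (adjusted p = 1e-07). Both inhibitor arrays lay below both controls, as in 5.86% of all genes. SNORD45A fell as well, from 11.58 to 10.27 and from 10.24 to 9.56, and SNORD41 from 11.78 to 11.03 and from 11.76 to 11.01, all with calls in the 8-array fit too; the call of SNORD45A was lost without the U266/LR7 control or inhibitor array (-0.68, adjusted p = 0.155 and 0.133). In the opposite direction, SNORD95 was 9.36 and 10.23 in U266/LR7 and 8.96 and 10.27 in U266/s, a rise of 1.09 ± 0.21 (adjusted p = 0.000125).

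SNORD116 is a family of similar C/D box RNAs in the imprinted Prader-Willi region, which are cut from the introns of one long transcript and have no known ribosomal target. It was represented by 20 copies, of which 10 fell and 0 rose, where 0.25% of all genes fell and 0.174% rose. Of the 10, 5 were called in the 8-array fit. In 17 of the 20 copies both lines were lower, against 21.1% of all genes, and in 1 both were higher. The medians were -0.66 in U266/LR7 and -0.62 in U266/s. SNORD116-1 was 9.37 in the U266/LR7 control and 7.93 with inhibitors, and 7.08 and 5.53 in U266/s. The line itself set the level, so that the groups overlapped while each pair fell, and the difference of -1.50 ± 0.21 had the lowest adjusted p of all genes (7.07e-09). SNORD116-6 fell from 8.23 to 7.28 and from 6.35 to 5.38, SNORD116-24 from 11.14 to 10.25 and from 8.87 to 7.90, and SNORD116-11 from 7.27 to 6.02 and from 5.52 to 4.88. The copies are similar in sequence and may share hybridising RNA, so they cannot be counted as independent genes. SNORD115, the neighbouring family in the same region, had 0 of 20 copies called and medians of -0.17 and -0.04, at mean signals of 2.58 to 4.11, all under the lower quartile of genes.

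In the H/ACA box class, 6 of 61 genes fell and 2 rose, where 0.25% of all genes fell and 0.174% rose. The medians were -0.10 in U266/LR7 and -0.08 in U266/s. SNORA22 was 10.93 and 10.02 in U266/LR7 and 10.11 and 8.59 in U266/s, a fall of 1.22 ± 0.20 (adjusted p = 4.2e-06). SNORA24 went from 10.31 to 9.27 and from 10.68 to 9.72, and SNORA7B from 9.88 to 8.73 and from 9.27 to 8.34. For both of these every inhibitor array lay below every control array. SNORA2A went the other way, from 7.01 to 8.18 and from 5.93 to 7.20, a rise of 1.22 ± 0.20 (adjusted p = 2.92e-06), and SNORA54 rose by 0.84 ± 0.20 (adjusted p = 0.0137, and 0.0611 with all 8 arrays). Of 16 Cajal body RNA genes, which guide the modification of spliceosomal RNAs, 0 passed, against 0.424% of all genes. Both lines were lower in 8 of them, against 21.1% of all genes.

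Most snoRNAs of human cells are cut from introns of other genes. Of the 27 called snoRNA genes, 12 lay inside a gene that was itself measured, and these 12 had 10 different containing genes, 0 of which passed. Over all genes 0.424% passed, so 0 of 10 is near that share. The differences of the containing genes ran from -0.34 to 0.23 with a median of -0.12. RPL23A, which contains SNORD42A, differed by -0.13, and RABGGTB, which contains SNORD45A and SNORD45B, by -0.23.

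The fall of these RNAs was not seen again in the arrays with melphalan, which are separate from the 4 that chose them. Of the 24 small RNA genes called lower, 1 was lower in both melphalan pairs and 10 were higher in both. Of the 6 called higher, 5 were higher in both. For the SNORD116 copies the medians with melphalan were 0.29 in U266/LR7 and -0.04 in U266/s. SNORD116-1 was 8.36 with melphalan alone and 9.01 with both in U266/LR7, and 8.84 and 9.15 in U266/s. The inhibitor effect on it differed between the arrays with and without melphalan by 1.98 ± 0.24 (adjusted p = 0.00734 by limma on all 8 arrays), and the same test passed for SNORA22, SNORD116-18 and SNORD45A. These 4 genes are 0.0217% of those tested. SNORA2A, in contrast, was higher by 1.24 and 0.82 in the melphalan pairs, SNORD95 by 0.45 and 0.34 and SNORD51 by 1.24 and 2.15.

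**Figure D4:**
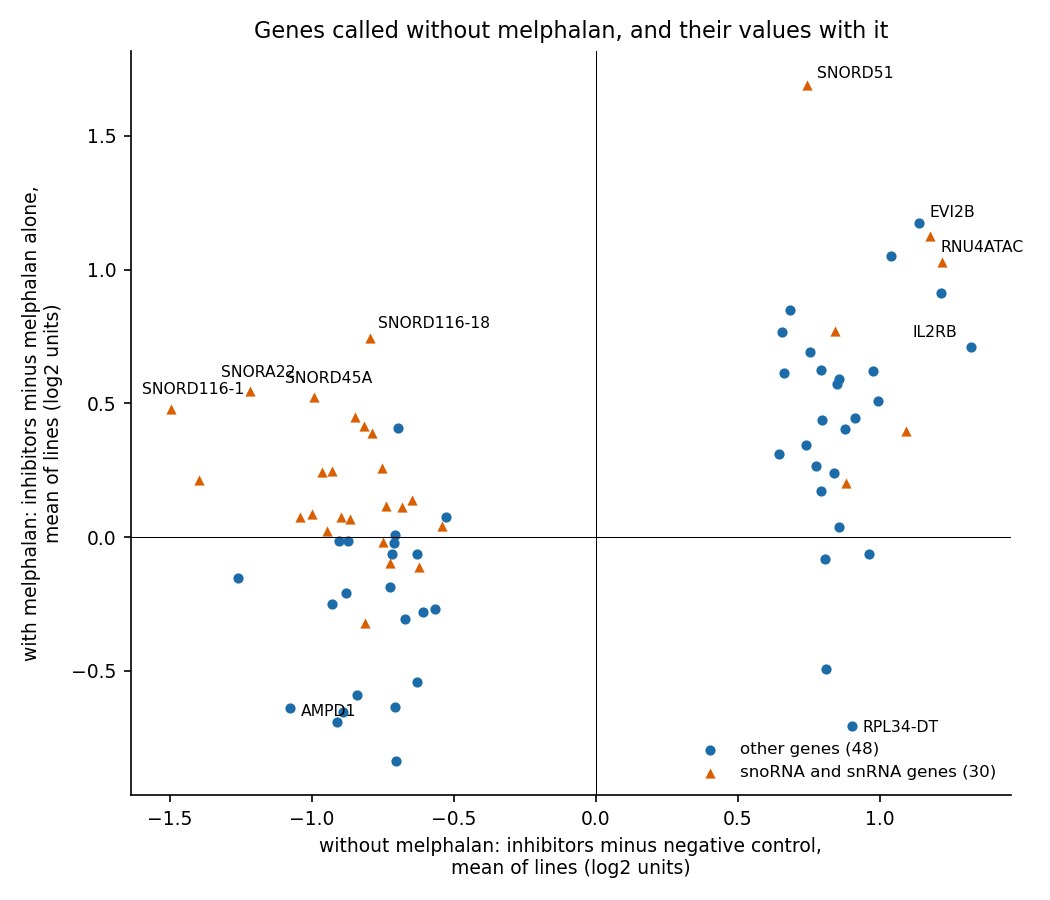
The 78 genes called without melphalan, with their mean difference over the lines without melphalan (horizontal axis) and with melphalan (vertical axis, inhibitors plus melphalan minus melphalan alone), in log2 units. Orange triangles are 30 small nucleolar and small nuclear RNA genes and blue circles 48 other genes; triangles on the left lie mostly above 0 on the vertical axis, while circles on the left lie mostly below it.

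Among genes of other kinds, 18 of the 26 called higher were higher in both melphalan pairs (69.2%) and 12 of the 22 called lower were lower in both (54.5%). Over all genes these shares were 28.8% and 30.3%. Adding the small RNA genes, 36 of the 78 called genes kept their direction in both melphalan pairs.

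Spliceosomal small nuclear RNAs, the RNA cores of the particles that remove introns, gave 3 called genes of 12, against 0.424% of all genes, and none when the small RNA genes had a variance of their own. RNU4ATAC, an RNA of the minor spliceosome that removes a rare class of introns, was 9.76 and 10.72 in U266/LR7 and 8.69 and 10.08 in U266/s, a rise of 1.18 ± 0.20 (adjusted p = 1.39e-05, and 0.0334 with all 8 arrays). Both melphalan pairs were higher as well, by 1.59 and 0.66. RNU11, another minor spliceosomal RNA, rose by 0.88 ± 0.22 (adjusted p = 0.0173, and 0.298 with all 8 arrays). Of the other minor spliceosomal RNAs, RNU12 differed by 0.25 and RNU6ATAC by -0.27, neither passing. RNU5B-1, an RNA of the U5 particle, fell by 0.75 ± 0.18 (adjusted p = 0.0117, and 0.371 with all 8 arrays). Of its relatives, none of which passed, RNU5A-1 was lower in both lines (-0.45 and -0.51), RNU5E-1 higher in both (0.51 and 0.12), and RNU5D-1 and RNU5F-1 differed in opposite directions.

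Replication-dependent histone genes, which are transcribed in S phase to package newly made DNA, were lower in both lines in 30 of 43 measured members, against 21.1% of all genes, and higher in both in 1. The median was -0.36 in U266/LR7 and -0.21 in U266/s, and 3 genes fell, where 0.25% of all genes did. H2AC20 was 12.41 and 11.63 in U266/LR7 and 12.29 and 11.81 in U266/s, a fall of 0.63 ± 0.14 (adjusted p = 0.00189, and 0.0991 with all 8 arrays). H2AC21 went from 12.24 to 11.53 and from 12.54 to 12.03, and H2BC7 from 11.67 to 11.04 and from 10.81 to 10.02. In H2AC20 and H2AC21 both inhibitor arrays lay below both controls, whereas in H2BC7 the groups overlapped. Without the U266/LR7 control or inhibitor array neither H2AC20 (adjusted p = 0.44 and 0.398) nor H2AC21 (0.457 and 0.435) was called, H2BC7 was not called when any of the 4 arrays was left out (adjusted p between 0.0652 and 0.0795), and 0 of the 43 passed in the 8-array fit. H2AC13 (-0.62) and H4C3 (-0.51, adjusted p = 0.0608) differed by a similar amount and did not pass. With melphalan the list's medians were 0.21 in U266/LR7 and -0.25 in U266/s, so only the parental line was lower again. Of 35 genes of the G1/S transition and DNA replication, both lines were lower in 18 and higher in 1, against 21.1% and 23.4% of all genes. Their median was -0.12 and 0 were called, where 0.424% of all genes were. ORC6, a subunit of the origin recognition complex, was the lowest at -0.32.

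The promoters of the 3 called histone genes are shown because these genes passed in the same direction. Each runs from 250 bases before to 50 after the start of the gene in RefSeq on GRCh38.p14, in the gene's direction, and capitals mark CCAAT and TATAAA on either strand (ATTGG and TTTATA on the other), which do not overlap in these windows.
H2BC7: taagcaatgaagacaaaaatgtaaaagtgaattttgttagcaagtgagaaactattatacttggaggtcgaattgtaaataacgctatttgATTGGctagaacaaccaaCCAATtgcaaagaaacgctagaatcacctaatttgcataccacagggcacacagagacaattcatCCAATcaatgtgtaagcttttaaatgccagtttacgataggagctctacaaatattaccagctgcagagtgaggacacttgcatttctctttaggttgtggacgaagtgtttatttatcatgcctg
H2AC20: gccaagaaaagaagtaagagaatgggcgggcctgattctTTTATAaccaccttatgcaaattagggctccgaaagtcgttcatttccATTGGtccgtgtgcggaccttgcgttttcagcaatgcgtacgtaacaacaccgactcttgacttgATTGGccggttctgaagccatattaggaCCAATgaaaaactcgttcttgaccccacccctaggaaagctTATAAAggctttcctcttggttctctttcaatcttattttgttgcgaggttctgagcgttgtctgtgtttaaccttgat
H2AC21: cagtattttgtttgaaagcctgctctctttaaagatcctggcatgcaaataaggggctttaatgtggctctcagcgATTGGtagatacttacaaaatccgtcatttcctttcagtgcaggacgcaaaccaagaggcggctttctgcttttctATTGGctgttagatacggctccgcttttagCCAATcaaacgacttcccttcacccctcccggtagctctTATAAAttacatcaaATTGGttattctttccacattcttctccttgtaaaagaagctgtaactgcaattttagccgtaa
The windows are chr6:26199266-26199565 on the plus strand, chr1:149886668-149886967 on the plus strand and chr1:149887916-149888215 on the minus strand. CCAAT was found in 34 of the 38 histone promoters in the table, against 35.7% of all 27305 promoters of this length. TATAAA was found in 27 of the 38, and in 3264 of all 27305. Among the 3 shown, CCAAT was found in each, and TATAAA in H2AC20 and H2AC21 but not in H2BC7. A match describes letters in a window and says nothing about binding.

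Among 16902 protein-coding genes 20 rose and 19 fell, which is 0.231%, against 0.424% of all genes. The largest rise was in IL2RB, which encodes a signalling chain of the receptors for interleukin-2 and interleukin-15. It was 7.32 and 9.23 in U266/LR7, control and then inhibitors, and 8.31 and 9.04 in U266/s. Both inhibitor arrays lay above both controls, the rise was 1.32 ± 0.22 (adjusted p = 4.2e-06, and 0.0334 with all 8 arrays), and the melphalan pairs differed by 0.69 and 0.73. Without the U266/LR7 control or inhibitor array the difference was 0.73 and not called (adjusted p = 0.178 and 0.18).

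CNTN6, a cell adhesion protein of the contactin family, was 9.21 and 10.64 in U266/LR7 and 7.25 and 7.90 in U266/s, a rise of 1.04 ± 0.22 (adjusted p = 0.00133, and 0.0544 with all 8 arrays). Without the U266/LR7 control or inhibitor array it was 0.65 (adjusted p = 0.323 and 0.325), and its melphalan pairs were higher by 0.89 and 1.21. EVI2B, a membrane protein of blood cells, went from 4.61 to 6.40 and from 5.75 to 6.25, and was higher by 1.66 and 0.69 with melphalan. It was not called with all 8 arrays (adjusted p = 0.13), nor without either U266/LR7 array, where it was 0.49 (adjusted p = 0.658 and 0.659). APOL6 rose by 0.91, TTC39A by 0.85, THSD7A by 0.81 and C1QTNF9B by 0.96, and none of these 4 was called with all 8 arrays or without either U266/LR7 array. The larger step was in U266/LR7 for each, at 1.31 against 0.51 for APOL6, 1.12 against 0.58 for TTC39A, 1.03 against 0.58 for THSD7A and 1.52 against 0.41 for C1QTNF9B. ODAPH rose by 0.99 ± 0.18 and was called there as well (adjusted p = 0.0334). SESN2, a stress-induced sestrin, differed by nearly the same amount in each line (0.62 and 0.60) without passing (adjusted p = 0.432).

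Of the genes that fell, AMPD1, which encodes an AMP deaminase best known from muscle, was 7.48 and 6.25 in U266/LR7 and 9.40 and 8.48 in U266/s. The fall was 1.08 ± 0.21 (adjusted p = 0.000394, and 0.0303 with all 8 arrays), and the melphalan pairs differed by -0.85 and -0.43. CHRNA1, a subunit of the acetylcholine receptor of muscle, went from 9.19 to 8.26 and from 7.61 to 6.69, and ROPN1L, a protein of the sperm flagellum, from 10.47 to 9.49 and from 6.53 to 5.69. Each pair fell in all of these, while the levels of the lines were apart and the groups overlapped for each of the 3. With melphalan CHRNA1 differed by -0.24 and -0.26, and ROPN1L by -0.61 and -0.77. TSHR, the thyrotropin receptor, fell by 0.89 ± 0.21 and TMSB15A, an actin-binding thymosin, by 0.90 ± 0.19, but neither was called with all 8 arrays (adjusted p = 0.0575 and 0.0739).

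Some of the largest steps were seen in a single line, where 1 array stands against 1. In U266/LR7, SLA, an adaptor that dampens antigen receptor signalling, was 7.06 and 8.70, against 6.78 and 6.72 in U266/s. CD180, a Toll-like receptor relative of B cells, was 5.96 and 7.60, against 8.71 and 8.78, and the chemokine receptor gene CCR1 was 7.55 and 9.12, against 7.86 and 7.72. The cell cycle kinase gene CDK6 behaved in the same way, with 9.13 and 10.63 in U266/LR7 and 11.73 and 11.71 in U266/s. SLA, CD180 and CDK6 passed as means of the lines (adjusted p = 0.0276, 0.0168 and 0.0102). None of the 3 was called with all 8 arrays (adjusted p = 0.757, 0.522 and 0.592) or after a second quantile normalization (0.427, 0.177 and 0.283). With a U266/s array left out of the 8-array model, where the effect rests on the U266/LR7 pair, each was called (adjusted p at most 1.65e-05), and with a U266/LR7 array left out SLA was -0.06, CD180 0.07 and CDK6 -0.02, none of them called. The test of a difference between the lines, averaged over the pairs without and with melphalan, passed for 0 genes, and for 32 after a second quantile normalization.

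On the lower side in U266/LR7, LOC100134868 went from 7.61 to 5.81, SNORD45B from 7.94 to 6.53 and HLA-DRB5 from 12.34 to 10.97. HLA-DRB5 encodes a chain of the HLA class II molecules, which present peptides to CD4 T cells. Another 8 class II genes were looked up after its value had been seen. In U266/LR7, HLA-DMB differed by -1.31, HLA-DQA1 by -1.23, HLA-DOB by -1.04, HLA-DPB1 by -1.03 and HLA-DMA by -0.89, while in U266/s these 5 lay between -0.04 and 0.20. HLA-DOA (-0.61 and 0.24) and HLA-DQB1 (-0.59 and 0.22) were lower in U266/LR7 and higher in U266/s, and HLA-DPA1 was lower in both (-0.45 and -0.31). CIITA, the master regulator of class II transcription, differed by -0.65 in U266/LR7 and -0.14 in U266/s. HLA-DRB5 and HLA-DPB1 alone passed as means of the lines (adjusted p = 0.0447 and 0.0481), and neither was called with all 8 arrays (0.547 and 0.724) or without either U266/LR7 array, where they were -0.08 and -0.03. With melphalan HLA-DRB5 differed by -0.34 in U266/LR7 and -0.03 in U266/s.

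In U266/s, IL10, a cytokine gene, was 7.87 and 9.23, against 5.59 and 5.61 in U266/LR7, and DHRS2, a mitochondrial reductase gene, was 5.81 and 7.03, against 5.65 and 6.01. The cell adhesion gene NRCAM went from 8.06 to 6.86 in U266/s, against 4.76 and 4.53 in U266/LR7, and AGTPBP1, which encodes an enzyme that trims tubulin tails, from 9.28 to 8.11, against 8.90 and 8.78. DHRS2 and NRCAM passed as means of the lines but not with all 8 arrays (adjusted p = 0.188 and 0.359) or without either U266/s array, where they were 0.36 and -0.23, and IL10 and AGTPBP1 did not (adjusted p = 0.0921 and 0.332).

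The remaining gene lists, here and below, held few calls or none. Over all genes 0.424% passed, so a count of 0 in a list of such a size is near that share. Among 48 ribosomal protein genes, whose products form the protein part of the ribosome, both lines were lower in 38 and higher in 2. Over all genes the shares were 21.1% and 23.4%. The medians of the list were -0.26 in U266/LR7 and -0.09 in U266/s, and 0 of its genes passed. RPL10A was the lowest at -0.51, with signals of 11.29 and 10.55 in U266/LR7 and 11.12 and 10.86 in U266/s. With melphalan the medians of this list were -0.01 and 0.03. Of 33 G2/M and mitosis genes, 28 moved in opposite directions in the lines, against 55.1% of all genes, with medians of 0.26 in U266/LR7 and -0.18 in U266/s. CENPE, a kinesin of the kinetochore, was 8.80 and 9.70 in U266/LR7 and 9.78 and 9.41 in U266/s. Crosslink repair genes (0.09 and -0.21) and genes of the microRNA processing machinery (0.19 and -0.09) had list medians of opposite sign in the lines as well, and 0 genes of either list passed.

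Of 24 genes that mark plasma cells, both lines were lower in 13 and higher in 1, against 21.1% and 23.4% of all genes, and 0 passed. TNFRSF17, which encodes the receptor BCMA, was 11.97 and 11.47 in U266/LR7 and 10.62 and 9.92 in U266/s, and its difference of -0.61 ± 0.17 did not pass (adjusted p = 0.0751). CD38 (-0.56), the chemokine receptor gene CXCR4 (-0.47) and SDC1 (-0.47), the gene of the plasma cell marker CD138, did not pass either. Summed over the list, plasma cell signal was 15.76 and 15.59 in U266/LR7 and 15.57 and 15.46 in U266/s. The summed levels of B cell markers lay between 9.99 and 10.46, of myeloid markers between 9.95 and 10.29 and of stromal and epithelial markers between 12.77 and 12.97 on the 4 arrays, values that can be set against each other only within a list. T and NK cell markers summed to 11.28 and 11.78 in U266/LR7 and to 11.32 and 11.36 in U266/s, although 7 of the 17 members were higher in U266/LR7, where their median was -0.12. The called member was SH2D1A, the adaptor SAP, at 9.26 and 10.54 in U266/LR7 and 4.70 and 5.01 in U266/s (adjusted p = 0.0276, 0.281 with all 8 arrays, and 0.87 and 0.868 without the U266/LR7 control or inhibitor array), while CD3D and the other 15 members measured did not pass. RMA values have no true zero, so the absence of a marker cannot be read from them, and its part in the results was not tested.

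Transporters that move melphalan or other drugs did not pass in any of 20 genes. SLC7A8, an amino acid transporter subunit, was 8.76 and 9.55 in U266/LR7 and 6.97 and 7.68 in U266/s, which is 0.75 ± 0.22 (adjusted p = 0.101). SLC7A5, the related subunit known to carry melphalan, differed by 0.35 in U266/LR7 and -0.03 in U266/s. The efflux pump genes ABCC1 and ABCB1 differed by -0.18 and 0.06. SLC7A11, the cystine transporter, was 8.39 and 9.79 in U266/LR7 and 8.60 and 8.34 in U266/s, again in opposite directions.

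Cholesterol synthesis genes were higher in both lines in 10 of 18, against 23.4% of all genes. INSIG1, a brake on that pathway, differed by 0.58 (0.63 and 0.53) without passing (adjusted p = 0.356). Glycolysis and hypoxia genes were higher in both lines in 15 of 29 and heat shock genes in 10 of 18, against the same 23.4%. The 1 gene called in these 3 lists was HSPA1L, a testis-enriched HSP70 gene, which fell by 0.71 ± 0.18 (adjusted p = 0.0291, and 0.103 with all 8 arrays). In both lines CHAC1, a glutathione-degrading enzyme induced by the unfolded protein response, was higher (0.51 and 0.68) without passing. In the adhesion list, CD44 was 11.94 and 12.87 in U266/LR7 and 10.95 and 11.10 in U266/s, a difference of 0.54 ± 0.15 that did not pass (adjusted p = 0.0516). The BCL2 family (17 measured), p53 targets (27), immediate early genes (28), interferon response genes (43), NF-kB genes (28), PI3K, AKT and FOXO genes (30), IL6 and STAT3 genes (24) and glutathione and NRF2 genes (26) had 0 genes called. With 0.424% of all genes called, 0 in lists of these sizes is near the share over all genes and does not show that an effect was absent.

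**Figure D5:**
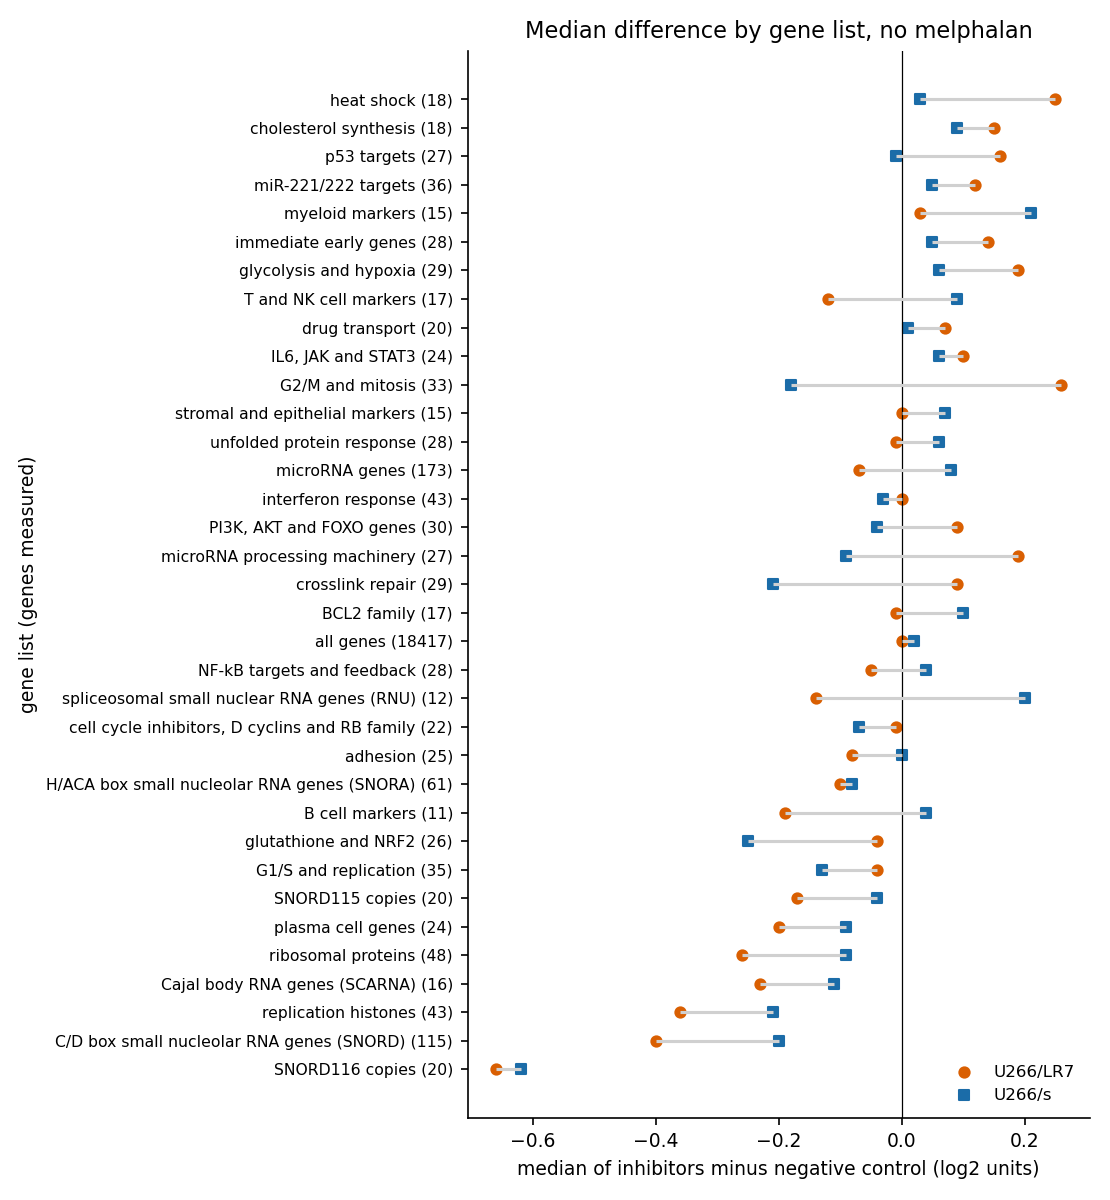
Median difference between inhibitors and negative control (log2 units, horizontal axis) over each gene list or family, with the number of genes measured in brackets, circles for U266/LR7 and squares for U266/s, 1 array per condition. SNORD116 copies lie lowest in both lines, C/D box RNAs and replication histones follow in U266/LR7, glutathione and NRF2 genes come next in U266/s (-0.25), and G2/M genes lie on opposite sides of 0 in the lines.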

How the data were processed

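Per the submitters' processing notes, the authors' deposited log2 values came from RMA in Affymetrix Expression Console; RMA subtracts background, equalises array distributions and summarises probes. Versions and the array's genome build were not given in the sources used here. Of 33297 transcript clusters in the platform annotation, 19460 have 1 gene symbol, 1754 several and 12083 none, and 19429 matched a reference gene by gene ID. The cluster of highest mean over the 4 arrays stood for a gene (769 genes had more than 1), which left 18417 genes, with no filter on signal. Array medians lay between 7.34 and 7.38 on the 4 arrays; the number of arrays limits the precision.

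The lines' pairs come from the labels' cell line tag. Tests used limma (version 3.58.1, R 4.3.3; lmFit and eBayes with an intensity trend, line as a block) with Benjamini-Hochberg adjustment over all genes at 0.05. The melphalan and line interactions used all 8 arrays. Lists received no test. The fits were tested on simulated data.

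The members and all 27 lists were chosen with earlier results of these data known. Named genes are the 12 largest rises and falls of one sign in both lines (ranked by the smaller difference, mean signal at or above the lower quartile), the 12 largest called each way, the 5 largest each way within a line, the 4 largest of each list and of the microRNA genes each way, and a fixed set. Genes outside it were named after their values were seen. Motifs were searched in RefSeq promoters (38 of the 43 measured histone genes matched), and 164 of 173 microRNA genes matched a sequence entry. Alternatives changed the normalization, the signal filter, the features, the variance model and the arrays.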

Additional observations from a re-analysis of the deposited data

Results flagged for a closer look

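For 4 small RNA genes the inhibitor effect differed between arrays with and without melphalan by limma on all 8 arrays. SNORD116-1 differed by 1.98 ± 0.24 (SE; adjusted p = 0.00734), from -1.44 and -1.56 without melphalan in U266/LR7 and U266/s to 0.65 and 0.31 with it. SNORA22 differed by 1.76 (adjusted p = 0.016), from -0.91 and -1.52 to 0.79 and 0.31. SNORD116-18 differed by 1.54 (adjusted p = 0.0318), from -0.56 and -1.04 to 0.63 and 0.86, at signals below the lower quartile of gene means. SNORD45A differed by 1.51 (adjusted p = 0.0435), from -1.31 and -0.68 to 0.78 and 0.27. SNORD116-1 and SNORA22 are snoRNAs of the C/D and H/ACA classes, and 0 genes outside the snoRNAs passed. After a second quantile normalization, and without the intensity trend, SNORD116-1 was the 1 gene left. The melphalan-alone arrays are tagged as not transfected, so a transfection effect and a melphalan effect cannot be told apart in this difference.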

How the results depend on the processing

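The count of 78 called genes was 49 after a second quantile normalization, 1 after cyclic loess, 45 among genes at or above the median signal and 1 of 33297 transcript clusters when all were fitted (a cluster that stood for none of the 78). It was 20 with 8 arrays and interaction terms, 0 with 8 arrays additive, 39 with separate variance trends for small RNA genes (an alternative chosen after seeing the data) and 0 with no replicate block. At an unadjusted p under 0.05, limma gave 374 genes in the additive 8-array fit and 59 with no replicate block. Leaving out 1 array gave 67 to 513. limma's prior degrees of freedom were infinite for the 78, 28 after quantile normalization, 11.4 after cyclic loess and 7.7 over all clusters. The count stayed within 1.5 times of 78 under median centring, means of clusters, no intensity trend and robust variances. The 71 genes that moved alike by 0.5 became 47 at or above the median signal, 384 over all clusters, 402 at 0.3 and 3 at 1. Genes past 0.5 numbered 1570 in U266/LR7 and 4125 over all clusters, and in U266/s 662, 280 at or above the median signal and 2069 over all clusters. The 4 melphalan interactions became 1 after quantile normalization, 12 at or above the median signal and 1 without the trend. The 0 line interactions became 32 after quantile normalization. Under the alternative normalizations, signal filter and features, of 920 values for 162 named genes, 819 kept their side of the threshold, 99 lost it, 2 gained it and 0 reversed. Genes that stayed uncalled count as kept here. Of the 78 calls, 74 were shared after median centring, 76 with means of clusters and 49 after quantile normalization. At or above the median signal 39 were shared, after cyclic loess 1 and over all clusters 0. MIR222 turned to -0.21 without either U266/s array. Causes were not tested.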
